A study of Mus musculus with 36 samples.

Results

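Cytochrome P450 families 1 to 3 hold the haem enzymes that oxidise drugs, steroids, fatty acids and environmental chemicals, mostly in hepatocytes. Members were all protein-coding genes whose symbol is Cyp1, Cyp2 or Cyp3 followed by a letter and digits, without pseudogenes, found by matching Ensembl identifiers to symbols. The rule found 61 members in 17 subfamilies among 136300 rows of the liver count table: 3 of family 1, 49 of family 2 and 9 of family 3. The Cyp2c (15 members), Cyp3a (9), Cyp2d (8) and Cyp2j (8) subfamilies were the most numerous, and 23 further Cyp1 to Cyp3 entries that are not protein coding were left out.

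Polyadenylated RNA was sequenced from powdered whole liver of male mice aged 4 weeks, killed at zeitgeber time 14, in 4 groups of 3 libraries. Wild-type mice were fed ad libitum or fasted for 24 h, and mice carrying Cre under the transthyretin (Ttr) promoter with both alleles of Vps15 flanked by loxP sites (Ttr CRE+, Vps15f/f) were fed or fasted in the same way. Vps15, gene symbol Pik3r4, encodes the protein that anchors and regulates the class 3 phosphoinositide kinase, and Ttr is expressed in hepatocytes. The study asked how loss of this kinase changes the response of liver to fasting. Within each group libraries go by the letters a, b and c, since the table's columns name the group without a replicate number, and nothing states whether the wild-type mice carried Cre or the loxP sites. Where no source says that libraries came from separate animals, p-values measure only the spread between these libraries.

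Library totals ran from 9110836 to 12870944 counts, and a level of 1 CPM, the usual depth-scaled count, here with library sizes scaled by the trimmed mean of M-values (TMM), corresponded to 7.27 to 15.4 counts. Pik3r4 lay between 17.6 and 25.3 CPM in the 12 libraries and was not lower in the libraries labelled knockout (log2 change 0.18 fed, adjusted p = 0.312; −0.08 fasted, adjusted p = 0.663). A total over all exons does not show whether floxed exons are missing, so this is no check of the deletion, and these groups are called livers labelled knockout. The labels give hepatocyte as the cell type, but markers of other liver cells were present in every group. The summed level of 16 macrophage and Kupffer cell markers was 1909 to 2439 CPM in wild-type libraries when fed and 633 to 882 CPM when fasted, and in libraries labelled knockout 3456 to 3926 CPM when fed and 2936 to 3475 CPM when fasted. The summed level of 18 hepatocyte markers was 46970 to 51169, 55452 to 58239, 23479 to 27173 and 24021 to 26651 CPM in the same order. Fewer cells of a type and less RNA per cell cannot be told apart in bulk liver.

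P450 enzymes of these families sit in the endoplasmic reticulum and take electrons from P450 reductase (Por) and cytochrome b5. Their genes are controlled by xenobiotic sensors: the aryl hydrocarbon receptor for family 1, the constitutive androstane receptor (Nr1i3) for Cyp2b, and the pregnane X receptor (Nr1i2) for Cyp3a, on a base of hepatocyte factors such as HNF4A and CEBPA. In adult mice many members are also sex-biased under the control of pulsatile growth hormone, with Cyp2b9, Cyp2b13, Cyp2a4, Cyp2c40, Cyp2c69, Cyp3a41 and Cyp3a44 known as female-predominant and Cyp2d9 as male-predominant.

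Several members are tandem copies, and how far their reads can be separated bears on the values of these copies below. Coding sequence of 2 pairs is shown because their members are counted as separate genes. In the coding sequences of the GENCODE M21 transcripts, Cyp2a4 and Cyp2a5 differed at 23 of 1482 bases (98.4% identity). Coding bases 580 to 669 of this pair hold 5 of the differences, in capitals.
Cyp2a4: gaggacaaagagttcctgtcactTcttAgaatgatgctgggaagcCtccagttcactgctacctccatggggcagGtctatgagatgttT
Cyp2a5: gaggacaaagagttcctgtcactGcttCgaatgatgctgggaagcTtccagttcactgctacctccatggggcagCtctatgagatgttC

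Cyp3a41a and Cyp3a41b differed at 2 of 1512 coding bases (99.9%), so a read from either can rarely be assigned. Cyp3a41a and Cyp3a44 differed at 64 of 1512 (95.8%), and coding bases 595 to 684 hold 8 of these, in capitals.
Cyp3a41a: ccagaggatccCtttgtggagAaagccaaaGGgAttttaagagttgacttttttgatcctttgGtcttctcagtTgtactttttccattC
Cyp3a44: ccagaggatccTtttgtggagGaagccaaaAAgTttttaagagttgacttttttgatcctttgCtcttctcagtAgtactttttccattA

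Of all 100-base windows of a member's transcripts, the share that also occurs in a transcript of another gene was 90.8% for Cyp3a41a, 88.2% for Cyp3a41b, 35.4% for Cyp2c69, 34.4% for Cyp2c40, 23.7% for Cyp2c67 and 19.8% for Cyp2c68. It was 11.2% for Cyp2a4 and 12.1% for Cyp2a5. Whether reads that match several genes were dropped, split or counted is not given in the sources used here, so values of these members are uncertain between copies.

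**Figure D1:**
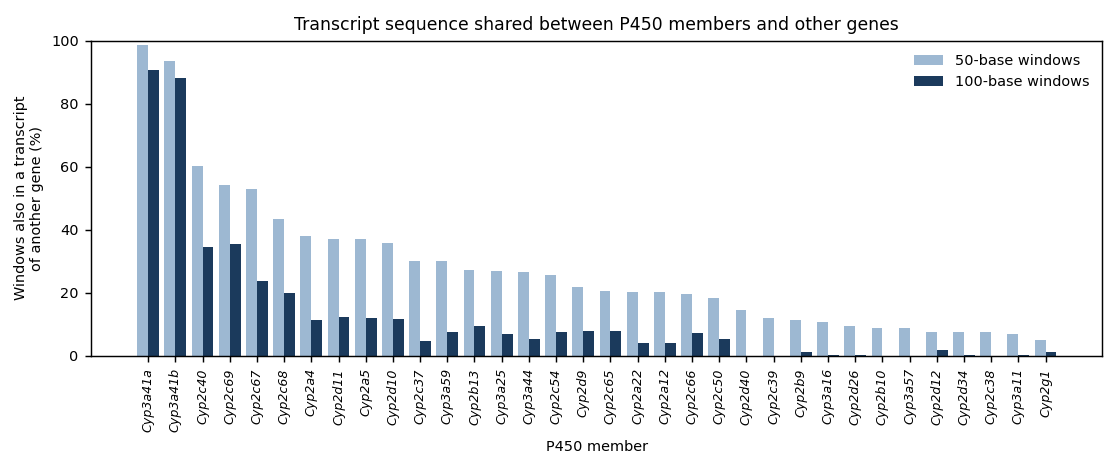
Share of 50-base (light bars) and 100-base (dark bars) windows of each member's transcripts that also occur in a transcript of another gene, in percent, for members with at least 5% of 50-base windows shared. Cyp3a41a and Cyp3a41b stand at 90.8% and 88.2% of 100-base windows, and the next members, Cyp2c69 and Cyp2c40, at 35.4% and 34.4%.

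Promoters (250 bases before to 50 after the start, RefSeq, GRCm38.p6) were found for 53 of 61 members. The HNF4 element CAAAGTCCA, on either strand, occurred in 10 of 53 (18.9%), against 0.555% of the promoters of 27025 genes. These were Cyp2c40, Cyp2c65, Cyp2c67, Cyp2c68, Cyp2c69, Cyp2c70, Cyp3a11, Cyp3a16, Cyp3a41a and Cyp3a41b, most of them copies in 2 tandem arrays that share promoter sequence. Windows of 41 bases with the element in capitals are shown for members whose level moved in opposite directions or to different extents, 5′ to 3′ on the gene's own strand, which is the minus strand for all of them.
Cyp2c40 (chr19:39812835-39812875): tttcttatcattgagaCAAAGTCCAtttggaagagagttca
Cyp2c69 (chr19:39886820-39886860): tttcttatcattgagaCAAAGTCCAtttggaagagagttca
Cyp2c67 (chr19:39649143-39649183): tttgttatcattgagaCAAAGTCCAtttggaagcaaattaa
Cyp2c68 (chr19:39741154-39741194): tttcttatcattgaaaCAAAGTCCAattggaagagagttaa
Cyp2c70 (chr19:40187326-40187366): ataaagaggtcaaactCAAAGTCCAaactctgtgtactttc
Cyp3a11 (chr5:145879939-145879979): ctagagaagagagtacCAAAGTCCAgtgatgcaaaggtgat
Cyp3a41a (chr5:145720207-145720247): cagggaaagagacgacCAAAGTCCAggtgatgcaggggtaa
Cyp3a44 (chr5:145805945-145805985): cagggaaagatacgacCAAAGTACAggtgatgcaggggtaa

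The Cyp2c40 and Cyp2c69 windows are the same 41 bases. The Cyp3a44 window, whose capitals mark the aligned position, differs from that of Cyp3a41a at 2 bases and does not hold the element. The dioxin response core GCGTG occurred in 10 of 53 member promoters (18.9%) and 35.2% of all promoters, Cyp1a1 and Cyp1b1 among them. TTCNNNGAA, the STAT5 element, occurred in 2 of 53 (3.77%) and 9.55% of all, and the C/EBP palindrome TTGCGCAA in 0 of 53 and 0.207% of all. A match describes these letters only, and motifs can overlap.

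Of the 61 members, 47 passed the filter on low counts and were tested, and 41 reached a group mean of 5 CPM. The 14 members not tested had at most 144 counts over the 12 libraries, and Cyp2j7, Cyp2j11, Cyp2j12, Cyp2j13 and Cyp2w1 had 0. Of those tested, 39 had at least 10 counts in every library of all 4 groups. Cyp1b1, Cyp3a41a, Cyp3a41b and Cyp3a44 had that in 3 groups, Cyp1a1 only in both groups labelled knockout, Cyp2b13 only in fed wild type, and Cyp2c55 and Cyp2d34 in no group. A difference is favoured in advance for a member that passes the filter only through groups where it is high. This limits the calls of these 8, of which Cyp2c55 was called in no comparison. The bar of 10 counts is descriptive: Cyp3a57 met it in fed knockout liver and did not pass the filter. Counts of tested members are given beside the share of all 23875 tested genes called in the same direction.

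The summed level of all 61 members was 15954 ± 848 CPM (SD, n = 3) in wild-type liver when fed and 21681 ± 1288 CPM when fasted, and in liver labelled knockout 6478 ± 1039 CPM when fed and 6734 ± 1204 CPM when fasted. The 6 libraries labelled knockout (5294 to 7756 CPM) all lay below the 6 wild-type libraries (15061 to 22898), and the fasted wild-type libraries all lay above the fed ones. Per kilobase of exon, Cyp2e1, which oxidises ethanol, acetone and paracetamol, was the highest member in wild type, at 1632 ± 96.1 CPM per kb fed and 2741 ± 98.9 fasted. In livers labelled knockout the highest was Cyp2a5, the coumarin hydroxylase, at 780 ± 140 CPM per kb fed and 777 ± 142 fasted. Cyp2e1 ranked 4 there, at 205 ± 33.8 and 301 ± 85.8 CPM per kb, below Cyp2a4 (537 ± 174 and 322 ± 262) and Cyp1a2 (334 ± 64.6 and 388 ± 38.7). These last 2 genes, and Cyp2e1 with Cyp2a4 in fasted knockout liver, did not differ beyond their spread.

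**Figure D2:**
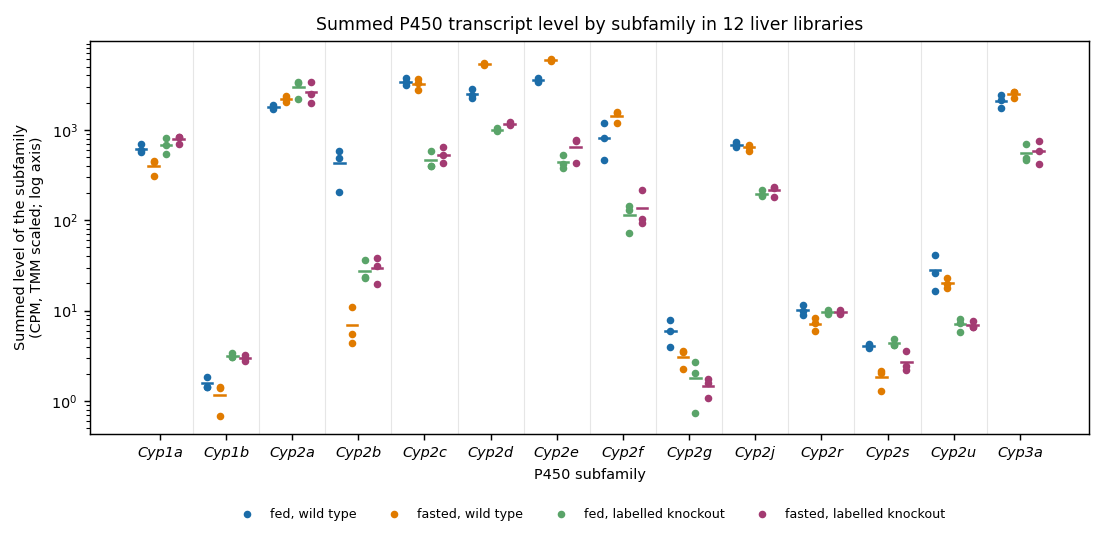
Summed CPM of each P450 subfamily (log axis) in the 12 liver libraries, as points by group with a line at the mean of 3 libraries. Cyp2c, Cyp2d, Cyp2e, Cyp2f, Cyp2j and Cyp3a lie lower in both groups labelled knockout than in both wild-type groups, whereas Cyp2a does not, and Cyp2b is high only in the fed wild-type libraries (206 to 584 CPM).

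Fasting in wild-type liver divided the families. Members of the Cyp2d subfamily, Cyp2e1, Cyp3a25, Cyp3a59 and Cyp2c37 rose, whereas all 3 tested Cyp2b members, Cyp2a4, Cyp2c40, Cyp2c69, Cyp2c70, Cyp3a41a, Cyp3a41b and Cyp3a44 fell, several of them to a few counts. Of 47 tested members 12 rose (25.5%, against 12.4% of all tested genes) and 14 fell (29.8%, against 14%), by edgeR's quasi-likelihood test at an adjusted p under 0.05. The median log2 change was −0.03 over members and −0.01 over all genes. The libraries of the 2 groups did not overlap for any of these 26 members. The share of all called genes without overlap is not given here, so nothing particular to these members is read from it. All 16 macrophage markers fell in the same comparison, as did 5 of 7 neutrophil, 6 of 12 stellate cell and 6 of 10 endothelial markers. Of 18 hepatocyte markers 6 rose and 1 fell, and of 8 cholangiocyte markers 2 rose and 1 fell. The part of these cell markers in the P450 result was not tested.

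Among the members that rose, Cyp2d9, a testosterone hydroxylase, was at 692, 260 and 358 CPM in fed libraries a, b and c and at 1780, 1711 and 1854 CPM after the fast. Every fasted library was more than 1000 CPM above every fed library, and the log2 change was 2.03 ± 0.27 (SE; adjusted p = 5.31e-05). Cyp2d10 rose from 737, 573 and 616 CPM to 1269, 1235 and 1223 CPM (log2 change 0.95 ± 0.12, adjusted p = 5.08e-05). Cyp2d26 rose from 863, 1053 and 1083 CPM to 1625, 1495 and 1553 CPM (0.64 ± 0.16, adjusted p = 0.00712). In all, 6 of 8 Cyp2d members rose, and the subfamily's sum rose 2.11-fold (adjusted p = 1.13e-05).

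Cyp3a59 had the largest rise. It lay at 2.18, 2.83 and 1.83 CPM in fed and at 31.8, 24.4 and 40.6 CPM in fasted wild-type liver, a log2 change of 3.82 ± 0.29 (adjusted p = 5.04e-07). Its closest coding relative Cyp3a25 (97.5% identity) rose from 183, 142 and 149 CPM to 473, 427 and 491 CPM (1.55 ± 0.27, adjusted p = 0.000643). Both genes were thus higher in all 3 fasted libraries. Cyp2c37, an arachidonic acid oxygenase, rose from 147, 141 and 137 CPM to 412, 397 and 406 CPM (1.51 ± 0.25, adjusted p = 0.000354). Cyp2e1 rose from 3755, 3359 and 3450 CPM to 5905, 5708 and 6135 CPM (0.75 ± 0.18, adjusted p = 0.00722). Cyp3a11, the most abundant Cyp3a member, was at 1310, 1623 and 1430 CPM fed and 1460, 1869 and 1797 CPM fasted, groups that overlapped (0.23 ± 0.23, adjusted p = 0.507).

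The falls were larger. Cyp2b9 went from 197, 430 and 514 CPM to 2.32, 1.5 and 8.94 CPM (log2 change −6.51 ± 0.57, adjusted p = 1.52e-06). Cyp2c40 went from 191, 241 and 240 CPM to 1.68, 2.51 and 7.29 CPM (−5.89 ± 0.46, adjusted p = 5.53e-07). Cyp2c69 went from 92.7, 307 and 279 CPM to 2.06, 1.38 and 3.85 CPM (−6.55 ± 0.51, adjusted p = 5.74e-07). The highest fasted library of each was far below its lowest fed library. Cyp2a4, a testosterone hydroxylase, went from 61.4, 158 and 137 CPM to 4.38, 2.51 and 7.56 CPM (−4.63 ± 0.59, adjusted p = 4.44e-05), while Cyp2a5 was at 938, 811 and 903 CPM fed and 1013, 1252 and 1355 CPM fasted (0.45 ± 0.17, adjusted p = 0.0596). Cyp2c70, which makes muricholic bile acids in mice, went from 569, 473 and 514 CPM to 22.2, 57.1 and 31.9 CPM (−3.81 ± 0.32, adjusted p = 1.26e-06).

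For 4 members the fasted wild-type group held 1 or 2 counts in all. Cyp3a44 had 3818 pooled counts fed (32.2, 249 and 125 CPM) and 1 fasted, a ratio of 3070 with a 95% counting interval of 551 to 121304. Cyp3a41a (25.9, 149 and 120 CPM fed) had 2795 and 2 counts, a ratio of 1124 (311 to 9284). Cyp3a41b (5.82, 80.2 and 63.2 CPM fed) had 1413 and 1, a ratio of 1136 (204 to 44913), and Cyp2b13 (3.12, 47 and 49.4 CPM fed) had 946 and 2, a ratio of 380 (105 to 3145). These intervals cover counting error only. Adjusted p by edgeR was 9.2e-06, 3.71e-06, 0.000239 and 0.000205 in this order.

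Smaller falls were those of Cyp1a2, which oxidises caffeine, from 688, 590 and 567 CPM to 311, 437 and 454 CPM (−0.62 ± 0.17, adjusted p = 0.0129), and of Cyp2b10, the usual target of the constitutive androstane receptor, from 5.51, 12.3 and 20.1 CPM to 1.93, 4.01 and 1.79 CPM (−2.28 ± 0.65, adjusted p = 0.0177). Cyp2r1, a vitamin D hydroxylase, went from 8.93, 10 and 11.7 CPM to 5.93, 7.39 and 8.25 CPM (−0.51 ± 0.17, adjusted p = 0.0363). By summed subfamily, in a table of 23842 tested rows of which 12.4% rose and 14% fell, Cyp2d and Cyp2e rose and Cyp1a, Cyp2b, Cyp2r and Cyp2s fell, 2 and 4 of 14 tested. The part that rose lay near the share of all rows. Cyp1b, Cyp2e, Cyp2f, Cyp2g, Cyp2r, Cyp2s and Cyp2u hold 1 member each, so their sums only repeat that member's test. The Cyp2b sum was 61.9-fold lower (adjusted p = 3.6e-07), and without fasted library a 2 subfamilies in place of 4 were called lower. Calls lost on leaving out 1 library were those of Cyp1a2, Cyp2b10, Cyp2c68, Cyp2d11, Cyp2d40, Cyp2r1 and Cyp3a13 (fasted a), Cyp2c68, Cyp2d22, Cyp2r1 and Cyp3a13 (fasted b), Cyp2b10, Cyp2d22, Cyp2d40 and Cyp3a13 (fasted c), Cyp1a2, Cyp2d11, Cyp2d40 and Cyp3a13 (fed a), Cyp2c68, Cyp2d22, Cyp2j9, Cyp2r1 and Cyp3a13 (fed b) and Cyp2b10, Cyp2c68, Cyp2d11, Cyp2d22, Cyp2j9 and Cyp2r1 (fed c).

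The fed wild-type libraries differed among themselves in several of these members. Between the lowest and the highest fed wild-type library, 5 of 47 members differed by more than 4-fold on the scale of CPM + 0.5 (Cyp2b13, Cyp3a41b, Cyp2a22, Cyp3a44 and Cyp3a41a), against 3 members in each of the other groups. With an offset of 2 CPM in place of 0.5 it was 5 members in fed wild type and 1, 0 and 2 members in fasted wild type, fed knockout and fasted knockout. The widest ratio was 13.8, for Cyp2b13. Past 2-fold were 15 members in fed wild type and 7, 12 and 13 in fasted wild type, fed knockout and fasted knockout. The median SD of log2(CPM + 0.5) over members was 0.26, 0.25, 0.36 and 0.35 in these 4 groups. By that median both groups labelled knockout spread more widely than fed wild type. Of the 15 members past 2-fold in fed wild type, library a was the lowest in 9 (Cyp2a4, Cyp2b9, Cyp2b10, Cyp2b13, Cyp2c39, Cyp2c69, Cyp3a41a, Cyp3a41b and Cyp3a44) and library b in 5 (Cyp2a22, Cyp2c29, Cyp2d9, Cyp2f2 and Cyp2u1). Values of genes outside the P450 families are set beside this. The mean log2 level of the 18 tested female-biased liver genes was 4.12, 4.96 and 5 in fed wild-type libraries a, b and c. That of the 20 tested male-biased genes was 7.32, 5.52 and 6.01. The summed level of all 21 female-biased genes was also lowest in library a (889, 1662 and 1797 CPM). That of all 21 male-biased genes was 7293, 7450 and 7677 CPM and thus not highest there. Sult3a1, a female-biased sulfotransferase, was at 35.4, 474 and 508 CPM in these libraries. The part of these differences in the fasting result was not tested.

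**Figure D3:**
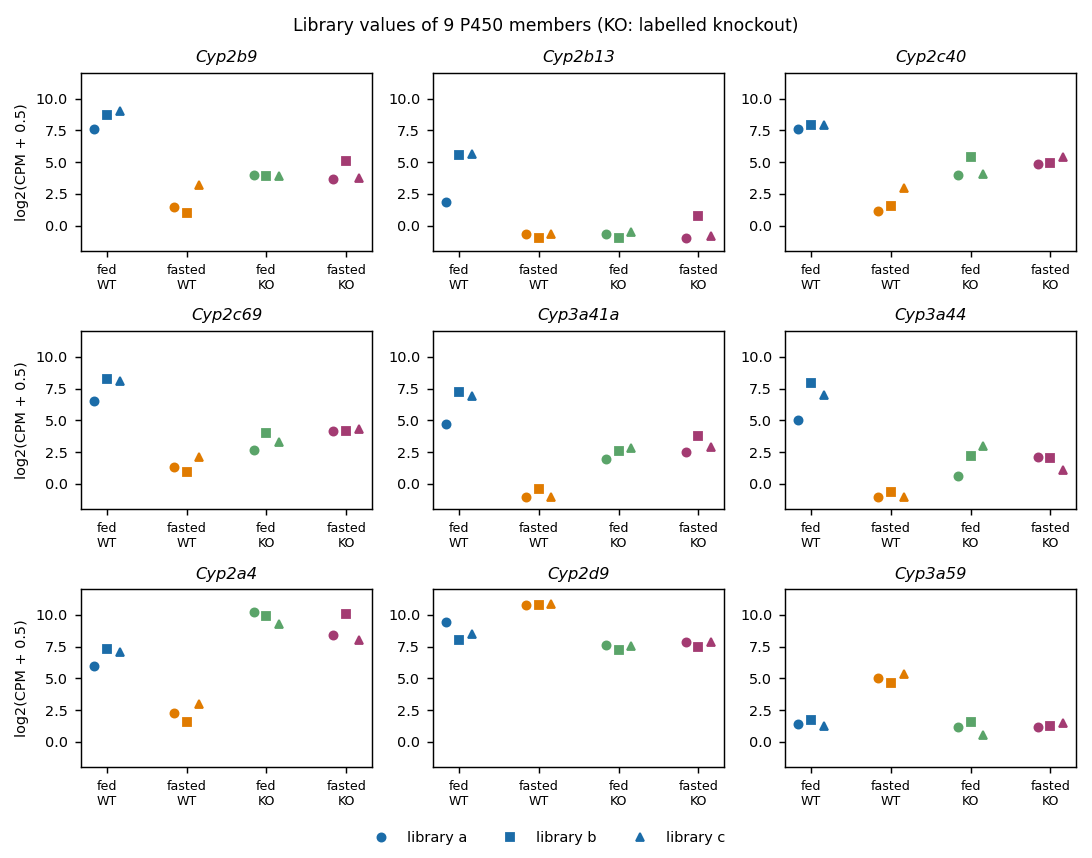
Level of 9 members on the scale of log2(CPM + 0.5) in each of the 12 libraries, by group, with circles, squares and triangles for libraries a, b and c. Library a is the lowest of the fed wild-type libraries for Cyp2b9, Cyp2b13, Cyp2c69, Cyp3a41a, Cyp3a44 and Cyp2a4 and the highest for Cyp2d9, and Cyp2a4 is higher in every library labelled knockout (256 to 1218 CPM) than in any wild-type library.

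In livers labelled knockout, no member passed the test for fasting. Of 47 tested members 0 rose and 0 fell, where 0.792% and 0.599% of all tested genes did. That background is too low to tell a count of 0 apart from it, so this is no result particular to the P450 members. At an unadjusted p under 0.05 there were 10 members. The share of all genes at that threshold is not given here, so nothing is read from this count. DESeq2 called 2 higher, Cyp2c37 and Cyp2d26, where it called 2.44% of all genes it tested higher. Cyp2c37 lay at 4.6, 12 and 5.96 CPM fed and 11.9, 13 and 21.5 CPM fasted (1.03 ± 0.28, adjusted p = 0.0722), and Cyp2d26 at 251, 374 and 398 CPM fed and 449, 501 and 528 CPM fasted (0.53 ± 0.16, adjusted p = 0.0931). Cyp2e1 lay at 523, 423 and 381 CPM fed and 435, 746 and 765 CPM fasted (0.55 ± 0.18, adjusted p = 0.13). The median log2 change was 0.22 over members and −0.02 over all genes. Of 14 tested subfamily sums 0 passed in either direction, where 0.818% of all tested rows rose and 0.625% fell, again too low a background to set 0 apart. Without fed knockout library b 3 members were called higher (Cyp2c37, Cyp2c50 and Cyp2c54), where 0.661% of all tested genes were. Without fasted knockout library b Cyp2c37 was called higher and Cyp2a4, Cyp2c68 and Cyp3a57 lower. In that fit 2.2% of all tested genes were higher and 700 of 24598 lower. Cyp3a57 was too low in counts to be tested with all 12 libraries.

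**Figure D4:**
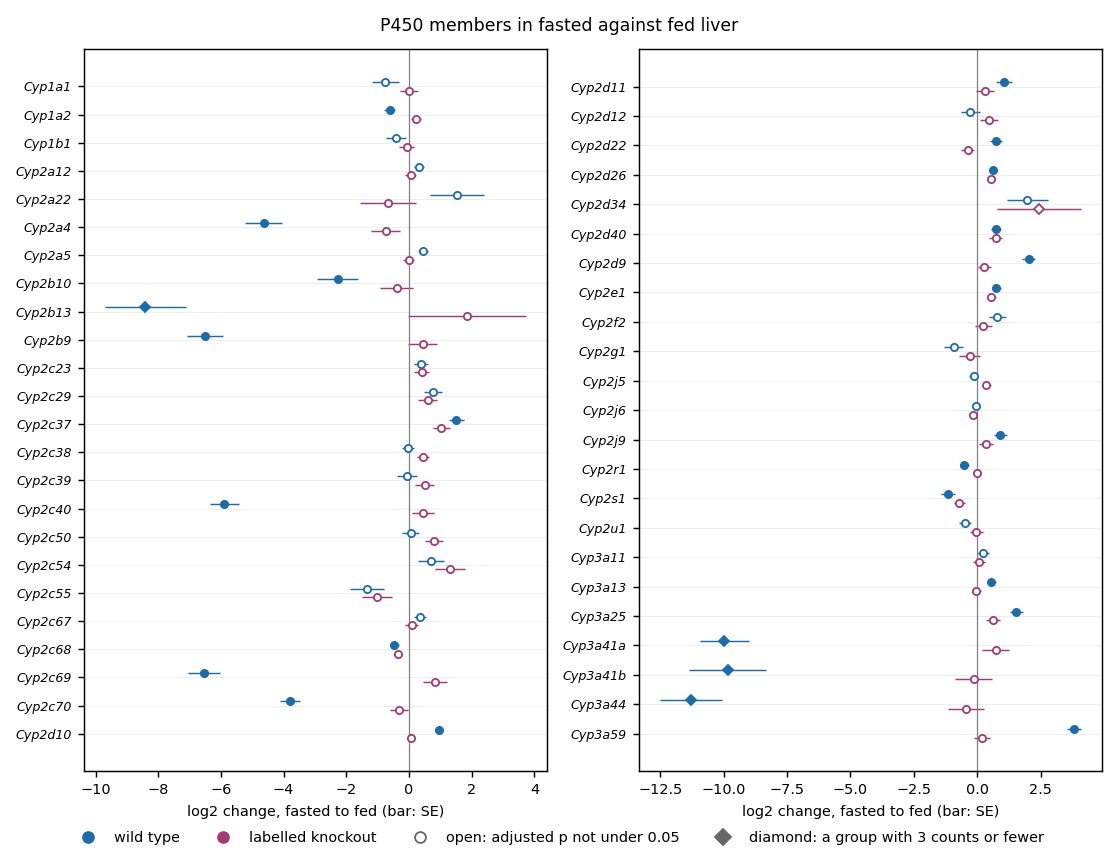
Log2 change from fed to fasted liver for the 47 tested members in wild type (blue) and in livers labelled knockout (purple), with standard errors. Filled symbols have an adjusted p under 0.05, and diamonds mark members with 3 counts or fewer in a group, whose fitted change is no measure of size; all filled symbols are wild type.

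The fasting effect itself differed between genotypes for 13 members. The difference, the log2 change in knockout minus that in wild type, was above 0 for 10 members (21.3%, against 6.35% of all tested genes) and below 0 for 3 (6.38%, against 5.70%), a share near that of all genes. The 10 were Cyp2c69, Cyp2c40, Cyp2b9, Cyp3a41a, Cyp2c70, Cyp3a44, Cyp2a4, Cyp3a41b, Cyp2b13 and Cyp1a2, and the 3 were Cyp3a59, Cyp2d10 and Cyp2d9. Cyp2b13 had 10 counts in every library only in fed wild type, where it was high, and Cyp3a41a and Cyp3a41b are near copies. Both points limit the share of 21.3%. The wild-type fasting change given above is part of each difference. The difference was 7.37 ± 0.65 for Cyp2c69 (adjusted p = 1.09e-05), 6.34 ± 0.57 for Cyp2c40 (adjusted p = 1.47e-05), 3.48 ± 0.42 for Cyp2c70 (adjusted p = 0.000128) and −3.63 ± 0.44 for Cyp3a59 (adjusted p = 0.000125). For Cyp2e1 it was −0.20 ± 0.26 (adjusted p = 0.691), and for Cyp2d26 −0.11 ± 0.22 (adjusted p = 0.809). By sums, Cyp2b (6.07 ± 0.54) and Cyp1a (0.83 ± 0.23) were above 0 and Cyp2d (−0.86 ± 0.17) below, where 6.34% and 5.74% of all tested rows were. Without any 1 of the 7 libraries named next for Cyp1a2, 1 sum in place of 2 was above 0. Cyp1a2 lost its call without any of fed wild-type a or b, fasted wild-type a, fed knockout a or c, or fasted knockout b or c (adjusted p 0.0508 to 0.0726), and Cyp2b13 lost it without fasted knockout library b (adjusted p = 0.59). Without fed knockout library c 5 members in place of 3 were below 0, with Cyp2d22 and Cyp3a25 added.

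Between genotypes in the fed state, most members were lower in livers labelled knockout. Cyp2c members, all 8 Cyp2d members, Cyp2e1, Cyp2f2, Cyp2j5 and most Cyp3a members were lower, and Cyp2a4, Cyp2a5, Cyp1a1 and Cyp1b1 were higher. Of 47 tested members 34 were lower (72.3%, against 23.0% of all tested genes) and 4 higher (8.51%, against 23.4%), with a median log2 difference of −1.70 over members and 0.01 over all genes. Libraries did not overlap for 36 of the 38, the exceptions being Cyp2d34 and Cyp3a41b, again without a share over all genes to set beside it. Of 18 hepatocyte markers 16 were lower and 0 higher, with a median of −1.18, and of 16 macrophage markers 14 were higher and 0 lower. Higher too were 6 of 7 neutrophil, 9 of 12 stellate cell, 3 of 8 cholangiocyte and 4 of 10 endothelial markers, of which 2 endothelial markers were lower. The part of these changes in cell markers in the P450 result was not tested.

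Cyp2e1 was at 523, 423 and 381 CPM in fed livers labelled knockout, against the 3359 to 3755 CPM of fed wild type (log2 difference −2.99 ± 0.20, adjusted p = 2.33e-08). Cyp2c54 was at 2.68, 13.2 and 4.35 CPM against 279, 204 and 244 CPM (−5.16 ± 0.52, adjusted p = 1.21e-06), the largest difference among Cyp2c members. Cyp2c29 was at 19.1, 26.7 and 19 CPM against 548, 208 and 334 CPM (−4.07 ± 0.32, adjusted p = 1.34e-07). All 3 were lower in every library labelled knockout. Cyp2c50 was at 29.6, 59.2 and 32.6 CPM against 780, 572 and 645 CPM (−4.04 ± 0.30, adjusted p = 7.88e-08). Cyp2f2, which oxidises naphthalene, was at 129, 144 and 73.2 CPM against 1190, 458 and 816 CPM (−2.83 ± 0.37, adjusted p = 1.65e-05). Cyp2j5, an arachidonic acid epoxygenase, was at 82.2, 123 and 78.3 CPM against 566, 533 and 601 CPM (−2.58 ± 0.19, adjusted p = 6.03e-08).

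Cyp3a11 was at 349, 545 and 331 CPM, against 1310 to 1623 CPM in fed wild type (−1.83 ± 0.24, adjusted p = 1.87e-05). Cyp2d40 was at 1.37, 2.93 and 3.42 CPM against 25.1, 34.6 and 32.7 CPM (−3.57 ± 0.24, adjusted p = 2.84e-08), the largest difference of a Cyp2d member with 10 counts or more in every library. Cyp2u1, a fatty acid hydroxylase, was at 8.17, 7.35 and 5.83 CPM against 40.9, 16.6 and 26 CPM (−1.97 ± 0.25, adjusted p = 1.37e-05). This comparison and that of fasting in wild type share the fed wild-type libraries. Cyp2b9 was at 15.4, 14.6 and 14.3 CPM (−4.69 ± 0.49, adjusted p = 1.8e-06), Cyp2c69 at 5.83, 15.9 and 9.11 CPM (−4.46 ± 0.42, adjusted p = 6.55e-07) and Cyp3a44 at 1.03, 4.1 and 7.17 CPM (−5.04 ± 0.64, adjusted p = 1.34e-05).

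Cyp2a4 went the other way. It was at 1218, 964 and 615 CPM in fed livers labelled knockout against 61.4, 158 and 137 CPM in fed wild type, 7.86-fold higher (2.97 ± 0.50, adjusted p = 0.00016). Cyp2a5 was at 1691, 1864 and 1296 CPM against 938, 811 and 903 CPM (0.87 ± 0.17, adjusted p = 0.000559). Every library labelled knockout was above every fed wild-type library for both. The other members of the subfamily did not share this, as Cyp2a12 was lower (424 ± 117 against 788 ± 60.1 CPM, adjusted p = 0.000629) and Cyp2a22 overlapped between groups. Cyp1a1 was higher at 3.87 ± 1.11 against 1.48 ± 0.528 CPM (adjusted p = 0.00267), with 10 counts in every library only in the groups labelled knockout, and Cyp1b1, which is known from cells other than hepatocytes, at 3.18 ± 0.171 against 1.57 ± 0.23 CPM (adjusted p = 0.00592). Cyp1a2 was at 678, 800 and 541 CPM, a range that holds all 3 fed wild-type libraries (0.13 ± 0.17, adjusted p = 0.55).

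In all, 11 Cyp2c members were lower. Cyp2c37 was at 4.6, 12 and 5.96 CPM against 147, 141 and 137 CPM (−4.23 ± 0.29, adjusted p = 2.95e-08). Cyp2c40 was at 15, 41.5 and 16.6 CPM against 191 to 241 CPM (−3.20 ± 0.37, adjusted p = 4.83e-06), and Cyp2c70 at 80.6, 114 and 69.2 CPM against 473 to 569 CPM (−2.56 ± 0.30, adjusted p = 5.97e-06). No library labelled knockout reached the lowest fed wild-type library of these 3 genes. Cyp2c23 was at 46.1 ± 12.1 against 335 ± 105 CPM (−2.86 ± 0.24), Cyp2c38 at 33.5 ± 2.60 against 161 ± 35.8 CPM (−2.26 ± 0.20) and Cyp2c67 at 69.2 ± 18.6 against 188 ± 50.7 CPM (−1.44 ± 0.20). Cyp2c68 was at 101 ± 6.22 against 340 ± 20.8 CPM (−1.76 ± 0.15). Of the other Cyp3a members, Cyp3a25 was at 27.2 ± 11.4 against 158 ± 21.6 CPM (−2.54 ± 0.29) and Cyp3a13 at 94.1 ± 17.8 against 200 ± 37.7 CPM (−1.09 ± 0.20). Cyp2g1, known from olfactory mucosa, was at 1.81 ± 0.986 against 5.90 ± 1.96 CPM and Cyp2j9 at 2.99 ± 0.561 against 7.41 ± 1.19 CPM. The 9 members that did not pass were Cyp1a2, Cyp2a22, Cyp2b10, Cyp2c39, Cyp2c55, Cyp2j6, Cyp2r1, Cyp2s1 and Cyp3a59. Cyp2j6 lay at 99.5 ± 9.58 against 112 ± 9.88 CPM and Cyp2b10 at 12.6 ± 6.82 against 12.6 ± 7.28 CPM. Leaving out 1 library cost the calls of Cyp2d12 and Cyp2d34 only.

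In the fasted state 28 members were lower in livers labelled knockout (59.6%, against 28.1% of all tested genes) and 14 higher (29.8%, against 28.2%), so the share that was higher lay near that of all genes. The median log2 difference was −1.63 over members and 0.01 over all genes. Libraries did not overlap for 38 of the 42, a count that again has no share over all genes beside it. Hepatocyte markers were lower for 17 of 18 (median −1.38) and macrophage markers higher for 16 of 16. Higher too were 7 of 7 neutrophil, 8 of 12 stellate cell, 6 of 8 cholangiocyte and 4 of 10 endothelial markers, while 1 stellate cell, 1 cholangiocyte and 2 endothelial markers were lower. The part of these cell markers was again not tested. This comparison shares its fasted wild-type libraries with the fasting comparison, so members that fell on fasting in wild type start from a low level in both.

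Cyp2e1 was at 435, 746 and 765 CPM against 5905, 5708 and 6135 CPM (−3.19 ± 0.20, adjusted p = 8.91e-09). Cyp2c37 was at 11.9, 13 and 21.5 CPM against 412, 397 and 406 CPM (−4.71 ± 0.29, adjusted p = 7.12e-09). Cyp3a59 was at 1.75, 1.91 and 2.36 CPM against 31.8, 24.4 and 40.6 CPM (−4.00 ± 0.28, adjusted p = 2.04e-08), whereas its fed levels overlapped between genotypes (−0.37 ± 0.34, adjusted p = 0.394). Cyp2d9 was at 235, 173 and 235 CPM against 1780, 1711 and 1854 CPM (−3.05 ± 0.28, adjusted p = 2.34e-07). These genes were each lower in all 3 libraries labelled knockout.

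Cyp2a4 had the largest excess of any member with more than 3 counts in each group, at 339, 1083 and 256 CPM against 4.38, 2.51 and 7.56 CPM, 117-fold higher (6.87 ± 0.63, adjusted p = 2.77e-07). Cyp2c40 was at 29.1, 30.4 and 40.9 CPM against 1.68, 2.51 and 7.29 CPM (3.15 ± 0.44, adjusted p = 2.26e-05). Cyp2c69 was at 17.4, 17.8 and 19.3 CPM against 2.06, 1.38 and 3.85 CPM (2.91 ± 0.51, adjusted p = 0.000188), and Cyp2b9 at 12.1, 34 and 13.1 CPM against 2.32, 1.5 and 8.94 CPM (2.24 ± 0.55, adjusted p = 0.00256). These 3 stayed well below their fed wild-type levels. Against 1 or 2 counts in fasted wild type, the pooled ratio was 98.8 (27.1 to 819) for Cyp3a41a, 162 (28.9 to 6426) for Cyp3a41b and 70.3 (12.4 to 2797) for Cyp3a44. Cyp1a2 was at 692, 830 and 823 CPM against 311, 437 and 454 CPM (0.96 ± 0.17, adjusted p = 0.000164).

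Calls near the threshold in fasted liver were Cyp2c70 (70.2 ± 26.0 against 37.1 ± 18.0 CPM, adjusted p = 0.0162), Cyp2b10 (adjusted p = 0.0238), Cyp2a5 (adjusted p = 0.0451) and Cyp2r1 (adjusted p = 0.0374) among the higher members, and Cyp2a22 (adjusted p = 0.0405), Cyp2g1 (adjusted p = 0.0393) and Cyp2j6 among the lower. Cyp2a22, whose libraries overlapped, had a log2 difference of −2.25 that became −1.16 without fasted wild-type library a (adjusted p = 0.33), and its call was also lost without fasted knockout library a or c, with DESeq2 and with library sizes alone. Cyp2g1 lost its call without fasted wild-type library a or c or any 1 fasted knockout library (adjusted p 0.0508 to 0.123), with DESeq2 (adjusted p = 0.0561) and with library sizes alone (adjusted p = 0.246). Without fasted wild-type library a 9 members in place of 14 were higher, the calls of Cyp2a5, Cyp2b10, Cyp2c70, Cyp2r1 and Cyp3a44 being lost. Cyp3a44 also lost its call without fasted wild-type library b or c (adjusted p 0.0546 to 0.0644 over the 3). Cyp2j6 was lower (−0.29, adjusted p = 0.0297), but with library sizes in place of TMM scaling the difference was 0.22 (adjusted p = 0.0566).

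**Figure D5:**
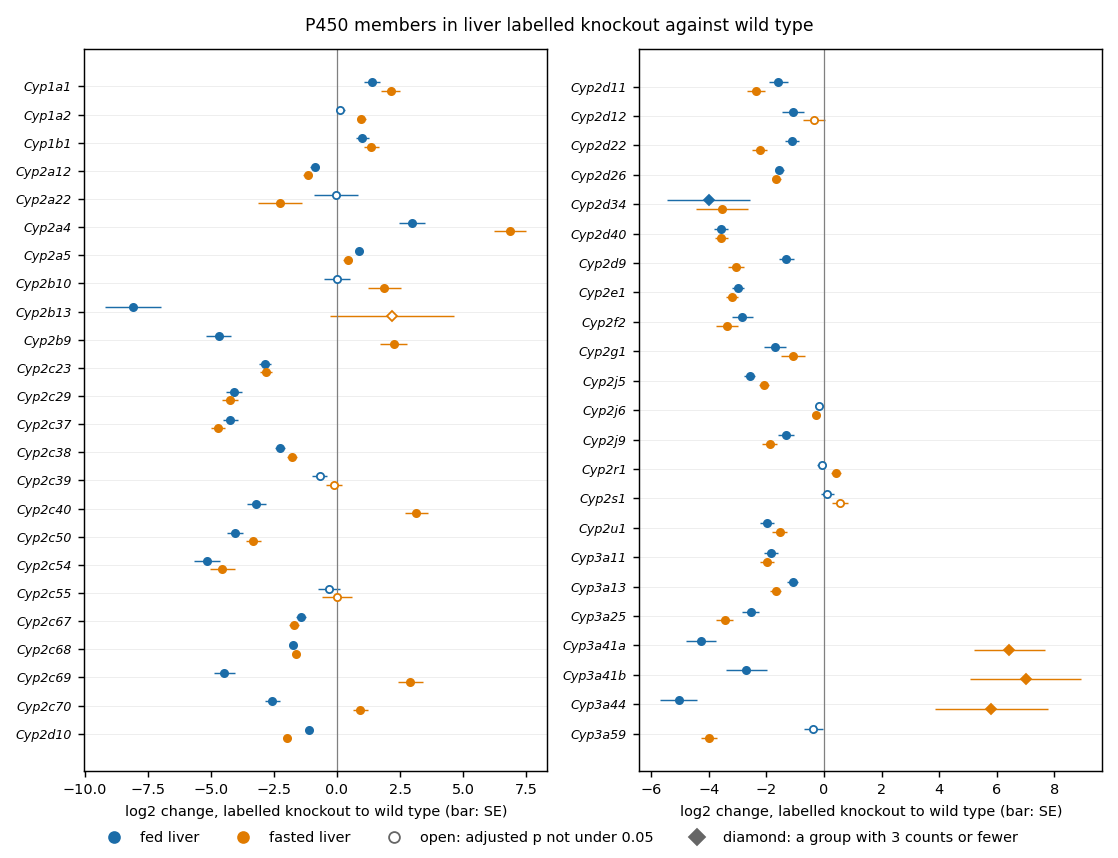
Log2 difference between livers labelled knockout and wild type for the 47 tested members, fed (blue) and fasted (orange), with standard errors. Filled symbols have an adjusted p under 0.05 and diamonds mark members with 3 counts or fewer in a group; most Cyp2c, Cyp2d and Cyp3a members lie below 0 in both states, while Cyp2b9, Cyp2c40, Cyp2c69, Cyp2c70, Cyp3a41a, Cyp3a41b and Cyp3a44 lie below 0 fed and above 0 fasted.

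By summed subfamily, 9 of 14 were lower and 2 higher in fed liver labelled knockout, where 23.0% of all tested rows were lower and 23.3% higher. In fasted liver 8 were lower and 4 higher, where 28.1% were lower and 28.1% higher, so the part that was higher lay near the share of all rows. With library sizes alone the fasted split was 7 lower and 6 higher. The Cyp2c sum was 7.47-fold lower fed (3423 ± 316 to 458 ± 103 CPM) and 6.13-fold lower fasted (3236 ± 472 to 529 ± 106 CPM). The Cyp2d sum was 2.50-fold lower fed and 4.54-fold lower fasted, and the Cyp3a sum 3.83-fold and 4.28-fold lower. The Cyp2a sum, which does not depend on how reads are divided between Cyp2a4 and Cyp2a5, was 1.66-fold higher fed (1797 ± 102 to 2980 ± 672 CPM, adjusted p = 0.0052) and 2214 ± 189 against 2612 ± 700 CPM fasted (adjusted p = 0.304). Cyp2b was 15.5-fold lower fed and 4.33-fold higher fasted. TMM scaling matters for these levels: with library sizes alone the median of all genes moved to 0.39 fed and 0.52 fasted, and 9968 genes were higher and 3092 lower fed, in place of 5577 and 5483, and 11731 higher and 3576 lower fasted, in place of 6722 and 6700. For fasting in wild type the same setting moved the median to −0.19, with 1788 genes higher and 5216 lower in place of 2957 and 3333.

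Genes that control or serve the P450 enzymes were described from lists. Their counts stand against the shares of all tested genes: 12.4% rose and 14% fell on fasting in wild type, 23.4% were higher and 23.0% lower in fed liver labelled knockout, and 28.2% were higher and 28.1% lower in fasted liver labelled knockout. Of 33 tested regulators, 10 rose (30.3%) and 5 fell (15.2%, near the share of all genes) on fasting in wild type, 17 were lower and 2 higher in fed knockout liver, and 22 were lower and 0 higher in fasted knockout liver. Nr1i3 was at 26.1, 17.9 and 20.8 CPM in fed and 82.2, 77.2 and 86.3 CPM in fasted wild type (1.92 ± 0.20, adjusted p = 5.77e-06), and at 8.84 to 13.9 CPM fed and 8.8 to 14.1 CPM fasted in livers labelled knockout. Cyp2b10, its usual target, fell in wild type, a call lost without fed library c, fasted library a or fasted library c. A link between the RNA levels of these genes was not tested. Nr1i2 rose from 123 ± 13.6 to 182 ± 19.4 CPM in wild type and was at 84.3 ± 5.05 and 84.8 ± 0.231 CPM in knockout liver. Hnf4a was at 986 ± 37.2 and 1034 ± 162 CPM in wild type and 535 ± 19.6 and 528 ± 101 CPM in knockout liver, and Cebpa at 646 ± 80.0 and 592 ± 87.5 against 241 ± 26.9 and 221 ± 24.3 CPM. Ghr, the growth hormone receptor, was at 494 ± 43.5 and 386 ± 32.4 against 102 ± 7.17 and 84.1 ± 17.2 CPM. Stat5a, among the genes for STAT5, fell from 57.0 ± 11.5 to 18.6 ± 3.64 CPM on fasting in wild type (adjusted p = 8.82e-06) and was at 25.1 ± 3.09 and 21.4 ± 1.77 CPM in knockout liver. Its RNA alone does not measure the growth hormone signal. Ahr did not pass the test in any of the 5 comparisons (33.3 to 48.3 CPM as group means).

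Of 19 electron donors and haem enzymes, 4 rose and 4 fell (21.1% each) on fasting in wild type, 11 were lower and 3 higher in fed knockout liver, and 13 were lower and 4 higher in fasted knockout liver. Por rose from 979 ± 208 to 1950 ± 144 CPM in wild type (0.99 ± 0.16, adjusted p = 0.000363) and was at 764 ± 126 and 819 ± 81.0 CPM in knockout liver. Alas1, the first enzyme of haem synthesis, was at 972 ± 31.9 and 657 ± 188 CPM in wild type and 361 ± 67.8 and 196 ± 29.2 CPM in knockout liver. Hmox1, which breaks haem down, was at 107 ± 7.90 and 47.1 ± 8.77 CPM in wild type and 183 ± 16.3 and 253 ± 53.7 CPM in knockout liver. Of 86 conjugating and other drug-metabolising enzymes, 16 rose (18.6%) and 12 fell (14%, the share of all genes) on fasting in wild type, 55 were lower and 22 higher in fed knockout liver, and 54 were lower and 20 higher in fasted knockout liver, the shares that were higher (25.6% and 23.3%) lying near or below those of all genes, with medians of −1.07 and −1.20.

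Zonal and sex-biased lists were set beside the members, since several P450s are pericentral or sex-biased. Of 19 pericentral genes that are not P450s 13 were lower and 2 higher in fed knockout liver, and of 17 periportal genes 13 were lower and 1 higher, with medians of −1.17 and −1.64. Of 18 tested female-biased genes 6 fell (33.3%) and 3 rose (16.7%) on fasting in wild type, and of 20 male-biased genes 7 rose (35%) and 4 fell (20%). In livers labelled knockout 0 female-biased and 0 male-biased genes passed the test for fasting, where 0.792% of all tested genes rose and 0.599% fell, a background too low to tell a count of 0 apart from it. In fed knockout liver 10 female-biased and 16 male-biased genes were lower, with 4 and 0 higher. Of 4 tested sex chromosome genes 2 were lower in fed and 4 in fasted knockout liver. Slc22a26, a female-biased transporter, was at 63.3 ± 30.9 CPM in fed and 2.33 ± 1.37 CPM in fasted wild type, and at 7.84 ± 2.71 and 7.51 ± 4.41 CPM in knockout liver. Mup20, a male-biased urinary protein, was at 57.8 ± 37.6 and 455 ± 63.0 CPM in wild type and 18.7 ± 8.99 and 22.0 ± 8.26 CPM in knockout liver.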

How the data were processed

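Liver values were raw counts per gene as deposited. The submitters' processing notes list HISAT2, Subread, DESeq2, edgeR and build mm10. Their versions, the strand setting, the treatment of reads matching several genes, the annotation and any filter are not given in the sources used here. Per the labels' protocols, RNA was poly(A)-selected and the second strand was made with dUTP. The fibroblast libraries of the series were not used here, and the number of per-sample liver columns not used was 0. Of 48526 Ensembl identifiers 48144 matched GENCODE M21 (GRCm38), which gave symbols, exon lengths and coding sequences. The other 87774 rows carry NONCODE identifiers.

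Counts were filtered with filterByExpr, scaled by TMM (factors 0.801 to 1.22) and tested with edgeR 4.0.16 (quasi-likelihood F test, R 4.3.3), with 1 mean per group over 12 libraries and Benjamini-Hochberg adjustment over 23875 genes at 0.05. A standard error is the size of the log2 change over the root of its F statistic. Subfamily sums replaced their members' rows in a second fit. Replicate libraries differed beyond counting error (chi-square per degree of freedom 7.41 to 16.7). On simulated counts for fasting in wild type (23191 genes), edgeR recovered 82 of 100 altered genes at a log2 size of 1 and 100 of 100 at a size of 2, and 10 unaltered genes were called. DESeq2 recovered 86 and 100 and called 24 unaltered genes. The altered genes all had a mean of at least 5 CPM, balanced up and down, with no other group effect. The data hold far more called genes and members below that level, so these figures do not carry over to the comparisons above.

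Alternatives were DESeq2 1.42.0, RLE factors, library sizes alone, no filter, Ensembl genes only, only the compared groups, and leaving out each library. Library values are given for the most abundant member per subfamily reaching 5 CPM, for up to 8 rises and 8 falls per comparison whose libraries do not overlap and whose higher group has at least 5 CPM, and for up to 8 members past the interaction test; 30 members qualified, and others are named where a count calls for it. Members and lists were chosen with earlier results of these data known.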

Additional observations from a re-analysis of the deposited data

Results flagged for a closer look

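The effect of fasting differed between genotypes, by the interaction term in edgeR, for 13 members. Adjusted p was 1.09e-05 for Cyp2c69, 1.47e-05 for Cyp2c40, 3.18e-05 for Cyp2b9, 5.96e-05 for Cyp3a41a, 0.000128 for Cyp2c70, 0.000645 for Cyp3a44, 0.00313 for Cyp2a4, 0.00389 for Cyp3a41b, 0.0189 for Cyp2b13 and 0.0314 for Cyp1a2. In these 10 the difference, knockout minus wild type, was above 0 (21.3% of 47 members, against 6.35% of all tested genes). In 3 it was below 0 (6.38%, against 5.70%, a share near that of all genes), with an adjusted p of 0.000125 for Cyp3a59, 0.00405 for Cyp2d10 and 0.00584 for Cyp2d9. Cyp3a41a and Cyp3a41b share nearly all of their sequence and are not separate observations. Cyp2b13 had enough counts only in fed wild type, where it was high, which limits its call.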

How the results depend on the processing

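No paired analysis was possible because the liver columns carry no replicate numbers. For fasting in livers labelled knockout, members called higher went from 0 to 2 with DESeq2, where 2.44% of all tested genes were higher. With no filter members called higher went from 0 to 12, where 1.45% of all tested genes were higher. Members called lower went from 0 to 2 with no filter, where 722 of 57562 genes were lower. The interaction had 6 members below 0 with no filter, in place of 3, where 1329 of 57562 genes were below 0. The cause was not tested. Leaving out 1 library gave 0 to 3 members higher and 0 to 3 lower for fasting in knockout, 9 to 13 higher between genotypes in fasted liver, and 8 to 12 above and 3 to 5 below 0 in the interaction. For fasting in wild type it gave 9 to 14 higher and 10 to 14 lower, and between genotypes in fed liver 4 to 5 higher and 33 to 35 lower. In these fits 0.00816% to 2.2% of all tested genes were higher for fasting in knockout and 8.66% to 9.69% for fasting in wild type. Between genotypes 25.4% to 26.2% were higher in fasted and 19.2% to 20.7% in fed liver, and 4.2% to 5.92% were above 0 in the interaction. Each of these fits tested 24502 to 25024 genes. Genes called lower numbered 1 to 700 for fasting in knockout, 2483 to 2953 for fasting in wild type and 4766 to 5061 between genotypes in fed liver. In the interaction 973 to 1481 genes were below 0. For subfamily sums, leaving out 1 library gave 2 to 4 lower for fasting in wild type and 1 to 2 above 0 in the interaction. The other counts of members and sums stayed within 1.5 times their main value under the alternatives run. Some of these counts include Cyp3a16 or Cyp3a57, which passed the filter only in those fits. Depth limits members such as Cyp3a44 and Cyp2b13, for which 1 or 2 counts set the low group.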
